A study of Mus musculus with 16 samples.

Results

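Collagens are the triple-helical proteins that are the most abundant proteins of the extracellular matrix, and each gene encodes 1 polypeptide, the alpha chain, of which 3 wind into a helix. The collagen chain genes of the mouse lung were examined here as a family. They were taken as every row of the deposited table whose mouse symbol has the form Col, a type number, the letter a and a chain number, which gave 44 of 53647 genes. By class, 11 encode chains of fibrillar collagens, 6 of the basement membrane collagen type IV, 3 of network-forming collagens, 9 of fibril-associated collagens, 4 of transmembrane collagens, 6 of the beaded-filament collagen type VI, 1 of the anchoring-fibril collagen type VII, 2 of the multiplexins and 2 of other collagens.

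RNA was sequenced from lungs of mice in 4 groups of 4 libraries, 2 from each of 2 batches named in the sample titles. In the Ad-ATP12A group bleomycin was combined with an adenovirus named for ATP12A, the alpha subunit of a proton-potassium pump. In the Ad-GFP group it was combined with an adenovirus named for green fluorescent protein, the bleomycin group had bleomycin alone, and the control group had none of these. Bleomycin damages lung tissue and is widely used to produce fibrosis in mice. Strain, age, sex, dose, route and time of collection are not given in the sources used here, nor is the species or promoter of the transgene. The labels do not say whether each replicate is an animal of its own, and the p-values thus measure the spread between libraries, which may be partly technical. A library is named by its batch and replicate, b1r2 being replicate 2 of batch 1, and values for a group are listed in the order b1r1, b1r2, b2r1, b2r2.

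Type I and type III collagen form the load-bearing fibrils of the lung, type V chains are built into those fibrils and limit their width, and all are made mainly by fibroblasts and their relatives. Type IV collagen forms the sheet under epithelium and endothelium, and its form in alveoli and glomeruli is built from chains of its own, while type VI forms fine filaments that tie cells and fibrils together. Accumulation of fibrillar collagen is what defines fibrosis of the lung.

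Values are TPM, a relative abundance per transcript length within a library, so levels of different genes can be compared. TPM hold no read number, and library depth is unknown. Each library had 15537 to 16336 genes at 1 TPM or more, and the lowest correlation between libraries of 1 group was 0.929. Whole-lung markers were present, but Scgb1a1, which marks club cells of the airway, lay under 1000 TPM in 3 libraries (Ad-GFP b1r1, bleomycin b2r2 and control b2r1), against 24870.14 to 122337.46 TPM in the other 13, and results are also given without those 3. Xist reached 10 TPM in 6 libraries, 3 of them Ad-ATP12A and 1 in each other group, so every group holds libraries with and without it. Atp12a reached 5.13, 2.96, 29.02 and 25.7 TPM in Ad-ATP12A libraries and at most 0.2 TPM in any other library. In whole-lung RNA, fewer cells of a type and less RNA per cell cannot be told apart, nor can more cells and more RNA per cell.

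The type I and type III chain genes were among the 4 chains with the highest mean level over all 16 libraries, and Col1a1 and Col3a1 had the largest bleomycin differences in the family on the log2(TPM + 1) scale. In controls alone Col4a1 had the highest mean, 177 ± 49.3 TPM, and 7 chains lay above Col1a1 at 41.5 ± 8.54 TPM (SD, n = 4 each). By the ratio of mean TPM, bleomycin over control, Col24a1 (14.9) exceeded Col1a1 (11.9), and Col11a1 and Col10a1, near 0 in controls, had larger ratios still. The sequence just before the start sites of the type I and type III chain genes is shown for those that have an entry. The 250 bases before the annotated start of Col1a2 (chr6:4505368-4505617, plus strand) and of Col3a1 (chr1:45311288-45311537, plus strand) are from RefSeq on GRCm38.p6, an earlier build than the one the reads were aligned to. Capitals mark 3 short motifs searched on both strands, the CCAAT box, the TATA box in the form TATAAA, and the GC box in the form GGGCGG, and no marked motifs overlap.
Col1a2: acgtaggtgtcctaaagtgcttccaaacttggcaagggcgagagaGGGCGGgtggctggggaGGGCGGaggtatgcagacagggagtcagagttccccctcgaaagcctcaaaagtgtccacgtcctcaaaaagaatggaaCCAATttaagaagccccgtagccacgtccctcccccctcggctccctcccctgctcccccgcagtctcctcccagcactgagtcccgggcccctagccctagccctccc
Col3a1: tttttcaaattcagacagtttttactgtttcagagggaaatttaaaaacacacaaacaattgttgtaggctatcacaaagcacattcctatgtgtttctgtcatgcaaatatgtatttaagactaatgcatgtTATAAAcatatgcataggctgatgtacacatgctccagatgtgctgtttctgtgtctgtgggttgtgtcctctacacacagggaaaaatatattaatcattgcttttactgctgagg
The Col1a2 stretch holds CCAAT and GGGCGG and no TATAAA, while the Col3a1 stretch holds TATAAA and neither of the others. Over windows of 300 bases, from 250 before to 50 after the start, 35 of the 44 genes had an entry, with 38 windows in all. CCAAT was in 13 of these 38 windows, against 37.4% of all 32851 windows of the table. TATAAA was in 5 of the 38, against 13.6% of all windows, and GGGCGG was in 23 of the 38, against 35.7%. A match describes letters in a window and is not a binding site. Col1a1, Col5a2, Col4a3, Col2a1, Col9a3, Col12a1, Col14a1, Col22a1 and Col26a1 had no entry.

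Collagen chains together made up 0.199% to 0.653% of all TPM in Ad-ATP12A libraries, 0.166% to 0.522% in Ad-GFP libraries and 0.280% to 0.459% in bleomycin libraries, against 0.0784% to 0.124% in control libraries. All 12 libraries given bleomycin lay above all 4 controls. The make-up of this sum also differed. Fibrillar chains held 55.8% ± 6.28 of collagen TPM in Ad-ATP12A, 52.3% ± 10.1 in Ad-GFP and 54.9% ± 7.59 in bleomycin libraries, against 25.0% ± 1.03 in control libraries (SD, n = 4 each). Type IV chains held 25.6% ± 4.36 in Ad-ATP12A, 28.2% ± 8.35 in Ad-GFP and 27.1% ± 6.40 in bleomycin libraries, against 42.1% ± 3.43 in control libraries, where they were the largest class. Transmembrane chains held 1.27% ± 0.49, 1.46% ± 0.634 and 1.25% ± 0.513 in the same 3 groups, against 6.36% ± 0.974 in controls. A share depends on the other classes, so summed levels are given as well. Transmembrane chains summed to 43.6 ± 13.5, 44.5 ± 13.1 and 43.4 ± 11.0 TPM in Ad-ATP12A, Ad-GFP and bleomycin libraries, against 63.4 ± 9.79 TPM in controls (SD, n = 4 each). The summed type IV level was 969 ± 471, 952 ± 438 and 979 ± 287 TPM in those groups, against 429 ± 104 TPM in controls. These sums and shares are descriptions and were given no test.

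**Figure D1:**
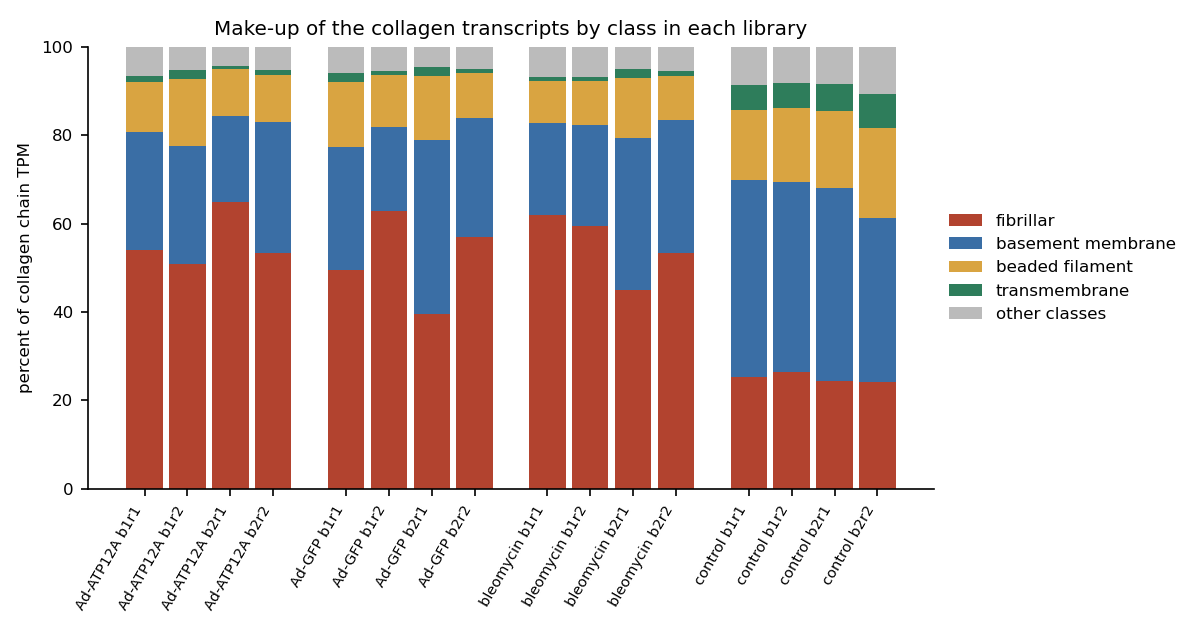
Stacked bars give the percent of all collagen chain TPM held by each class, 1 bar per library, with groups from left to right Ad-ATP12A, Ad-GFP, bleomycin and control. Fibrillar chains take 54.9% ± 7.59 of the bleomycin bars and 25.0% ± 1.03 of the control bars (mean and SD, n = 4 each).

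Most of the collagen chains tested had higher TPM in bleomycin lungs than in control lungs. Genes entered the test with at least 1 TPM in at least 4 of the 16 libraries, which 33 of the 44 chains and 17003 genes in all did. With limma on log2(TPM + 1), batch as a term and Benjamini-Hochberg adjustment over all 17003 genes, 20 of the 33 were higher and 1 was lower in bleomycin lungs at an adjusted p under 0.05. The same rule called 13.2% of all genes tested higher, 5.61% lower and 18.8% in either direction. The median log2 fold change was 1.02 over the 33 chains and 0.05 over all genes tested. By raw overlap, every bleomycin library lay above every control library for 22 of the 33 chains and below for 2 (Col8a2 and Col17a1), against 16.5% and 6.92% of all genes tested. Each of the 21 called chains had the same sign in both batches. Of those tested, Col11a1, Col11a2, Col24a1, Col10a1 and Col28a1 were under 1 TPM in every control library, so they entered only through libraries given bleomycin, and their presence in these counts follows in part from the filter. Col17a1 in turn entered through the 4 controls and 1 Ad-GFP library. Of the other 27 chains, 17 were higher and none was lower. The count of 21 became 11 without bleomycin b1r1, 11 without the 3 libraries low in Scgb1a1, and 1 (Col3a1) in batch 2 alone, with 2 libraries a group. Batch 1 alone, with as many libraries, lost the calls on Col6a1, Col6a2, Col8a1 and Col17a1 and added Col12a1 and Col13a1. The 11 called without the Scgb1a1-low libraries were Col1a1, Col1a2, Col3a1, Col5a1, Col5a2, Col27a1, Col4a1, Col6a1, Col6a3, Col7a1 and Col15a1. With no filter Col5a3, Col11a1, Col24a1, Col8a1, Col16a1 and Col17a1 were not called (adjusted p = 0.0502 to 0.103), and with no batch term Col4a2, Col4a4, Col6a2, Col8a1, Col11a1 and Col17a1 were not (0.0526 to 0.0743). Quantile normalization lost Col8a1, Col11a1 and Col24a1, median-ratio scaling lost Col8a1 and Col11a1, and array weights added Col10a1, Col12a1, Col13a1, Col18a1, Col23a1 and Col4a6.

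Fibrillar chains had the largest median difference of any class. Of 10 tested, 9 were higher in bleomycin lungs and none was lower, with a median log2 fold change of 2.46 (2.63 in batch 1 and 2.23 in batch 2). These include Col11a1, Col11a2 and Col24a1, which entered only through libraries given bleomycin. All of the other 7 were higher, with a median of 2.85. Col1a1 (ENSMUSG00000001506) and Col1a2 (ENSMUSG00000029661) encode the chains of type I collagen, the main collagen of scar. Col1a1 had 241, 181, 1191 and 669.55 TPM in Ad-ATP12A libraries, 139, 605, 205 and 748 TPM in Ad-GFP libraries and 666, 502, 243 and 572 TPM in bleomycin libraries, against 40.1, 45.4, 50.3 and 30.3 TPM in control libraries. Its lowest library given bleomycin, Ad-GFP b1r1, lay above the highest control, and the 12 libraries spread widely among themselves. The bleomycin mean was 496 ± 182 TPM against 41.5 ± 8.54 TPM in controls (SD, n = 4 each), a log2 fold change of 3.48 (SE 0.59, adjusted p = 0.00217). Col1a2 had 279, 248, 1219.92 and 745 TPM in Ad-ATP12A libraries, 182, 613, 301 and 863 TPM in Ad-GFP libraries and 672, 508, 316 and 653 TPM in bleomycin libraries, against 72.7, 81.2, 110.23 and 74.6 TPM in control libraries. The groups given bleomycin again lay wholly above the controls, with a log2 fold change for bleomycin of 2.61 (SE 0.48, adjusted p = 0.00314).

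**Figure D2:**
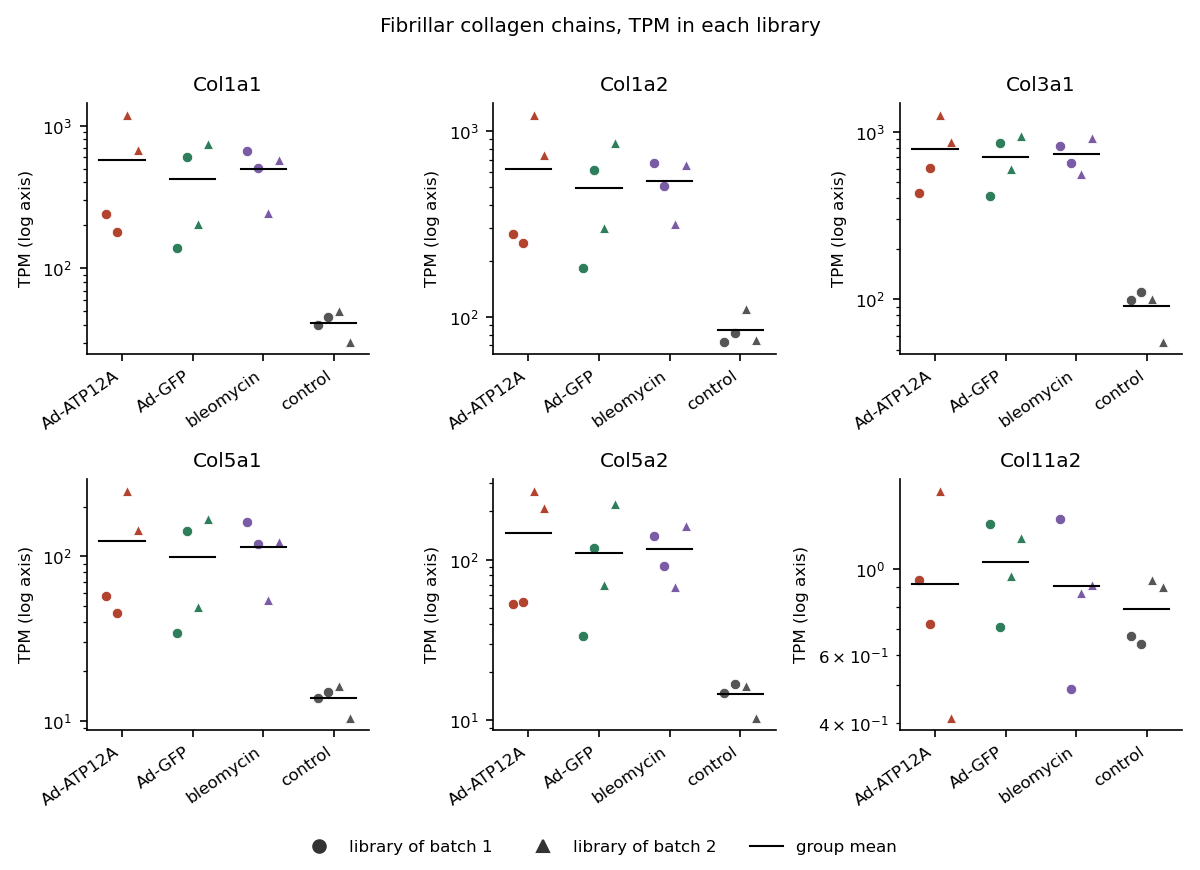
Points give TPM on a log axis per library for Col1a1, Col1a2, Col3a1, Col5a1, Col5a2 and Col11a2, with groups from left to right Ad-ATP12A, Ad-GFP, bleomycin and control, circles for batch 1, triangles for batch 2 and a bar at the group mean. The 4 controls lie below all 12 libraries given bleomycin in the first 5 panels, for example 496 ± 182 TPM in bleomycin against 41.5 ± 8.54 TPM in control libraries for Col1a1, and Col11a2 overlaps.

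Col3a1 (ENSMUSG00000026043) encodes the single chain of type III collagen, which forms thin fibrils with type I. It had 427, 608, 1259 and 872 TPM in Ad-ATP12A libraries, 414, 859, 595 and 935 TPM in Ad-GFP libraries and 822, 648, 557 and 913 TPM in bleomycin libraries, against 99.4, 109.63, 99.7 and 55.3 TPM in control libraries. Its standard error was smaller than that of Col1a1, and the call on bleomycin, a log2 fold change of 3.02 (SE 0.33, adjusted p = 1.3e-04), was kept in batch 2 alone (adjusted p = 0.0492). Control b2r2 lay below the other controls.

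Type V chains, which are incorporated into type I fibrils, were higher in bleomycin lungs as well. Col5a1 had 57.6, 45.4, 250.34 and 144 TPM in Ad-ATP12A libraries, 34.1, 143, 49.5 and 169 TPM in Ad-GFP libraries and 162, 118, 54.3 and 123 TPM in bleomycin libraries, against 13.8, 14.9, 16.2 and 10.3 TPM in control libraries. Col5a2 had 53.2, 54.7, 269 and 209 TPM in Ad-ATP12A libraries, 33.6, 118, 69.9 and 222 TPM in Ad-GFP libraries and 141, 92.1, 67.2 and 163 TPM in bleomycin libraries, against 14.7, 16.8, 16.3 and 10.3 TPM in control libraries. All libraries given bleomycin lay above all controls for both chains, with log2 fold changes for bleomycin of 2.88 (SE 0.56, adjusted p = 0.00437) for Col5a1 and 2.85 (SE 0.53, adjusted p = 0.00342) for Col5a2. The third type V chain, Col5a3, ran from 3.48 to 34.3 TPM in Ad-ATP12A libraries, 2.95 to 23.2 TPM in Ad-GFP libraries and 6.75 to 15.4 TPM in bleomycin libraries, against 1.12 to 1.78 TPM in control libraries. Its log2 fold change was 2.31 (SE 0.62, adjusted p = 0.0201), a call lost without bleomycin b1r1 or b1r2 (adjusted p = 0.0631 to 0.0714). For Col1a1, Col1a2, Col3a1, Col5a1, Col5a2 and Col5a3 alike, Ad-GFP b1r1 was the lowest and Ad-ATP12A b2r1 the highest of the 12 libraries given bleomycin.

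Among the scarcer fibrillar chains, Col27a1 (type XXVII, known from cartilage) had 8.69, 7.50, 7.28 and 6.86 TPM in Ad-ATP12A libraries, 11.7, 10.5, 8.33 and 9.47 TPM in Ad-GFP libraries and 11.1, 10.4, 7.75 and 7.21 TPM in bleomycin libraries, against 3.75, 4.73, 5.70 and 6.22 TPM in control libraries. Bleomycin and control libraries did not overlap, and the log2 fold change was 0.73 (SE 0.16, adjusted p = 0.00742). Col11a1, a chain of the cartilage collagen type XI, had 0.15, 0.12, 5.99 and 1.81 TPM in Ad-ATP12A libraries, 0.06, 1.36, 0.08 and 2.96 TPM in Ad-GFP libraries and 2.54, 1.65, 1.38 and 2.02 TPM in bleomycin libraries, against 0.05, 0, 0.03 and 0.03 TPM in control libraries. Control values were at or near 0, every bleomycin library lay above 1 TPM, and 4 of the 8 libraries with virus stayed under 0.2 TPM. Its log2 fold change for bleomycin was 1.48 (SE 0.49, adjusted p = 0.0479), a call lost on leaving out any of 9 libraries (Ad-ATP12A b2r2, Ad-GFP b1r1, all controls and the bleomycin libraries except b2r1, adjusted p = 0.0524 to 0.145). Col24a1 (type XXIV) ran from 0.98 to 2.38 TPM in Ad-ATP12A libraries, 0.68 to 3.65 TPM in Ad-GFP libraries and 0.55 to 2.09 TPM in bleomycin libraries, against 0.03 to 0.17 TPM in control libraries, with a log2 fold change of 1.15 (SE 0.33, adjusted p = 0.0283). That call was lost without bleomycin b1r1, b1r2 or b2r2 or control b1r1, b1r2 or b2r2 (adjusted p = 0.0525 to 0.089). Since TPM this low are damped by the added 1, these fold changes understate the ratio. Col11a1 and Col24a1 entered the test only through libraries given bleomycin, so their differences follow in part from the filter. Col11a2, the partner chain of type XI, was the one fibrillar chain tested without a call, at 0.41 to 1.60 TPM in Ad-ATP12A libraries, 0.71 to 1.31 TPM in Ad-GFP libraries and 0.49 to 1.35 TPM in bleomycin libraries, against 0.64 to 0.94 TPM in control libraries and a log2 fold change of 0.08 (SE 0.19, adjusted p = 0.816). Its 95% interval of -0.34 to 0.49 bounds any difference.

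Of the 6 type IV chains of basement membranes, 3 were higher in bleomycin lungs and none was lower, with a median log2 fold change of 0.44. Col4a1 (ENSMUSG00000031502) and Col4a2 encode the chains of the common type IV network found in every basement membrane. Col4a1 had 271, 292, 663 and 780.21 TPM in Ad-ATP12A libraries, 219.59, 376, 612 and 709.73 TPM in Ad-GFP libraries and 452, 381, 484 and 776 TPM in bleomycin libraries, against 201, 181, 219 and 106 TPM in control libraries. Col4a2 had 161, 183, 464 and 513 TPM in Ad-ATP12A libraries, 128, 235, 366 and 501 TPM in Ad-GFP libraries and 269.93, 227, 291 and 431 TPM in bleomycin libraries, against 126, 136, 169.61 and 94.3 TPM in control libraries. For Col4a1 all 12 libraries given bleomycin lay above the controls, though Ad-GFP b1r1 exceeded control b2r1 by about 1 TPM, and for Col4a2 Ad-ATP12A b1r1 and Ad-GFP b1r1 fell inside the control range. The log2 fold changes for bleomycin were 1.56 (SE 0.33, adjusted p = 0.00623) for Col4a1 and 1.20 (SE 0.31, adjusted p = 0.0179) for Col4a2, the second lost without bleomycin b1r1 or b2r2 (adjusted p = 0.051 to 0.064).

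Col4a3, Col4a4 and Col4a5 form the network of the alveolar and glomerular basement membrane. Col4a4 had 27.8, 31.5, 31.3 and 41.7 TPM in Ad-ATP12A libraries, 34.7, 31.5, 54.8 and 45.2 TPM in Ad-GFP libraries and 33.4, 34.5, 43.9 and 39.7 TPM in bleomycin libraries, against 24.2, 26.2, 31.6 and 21.9 TPM in control libraries. Its bleomycin libraries lay narrowly above the controls, with a log2 fold change of 0.53 (SE 0.14, adjusted p = 0.0166). Col4a3 ran from 37.0 to 85.4 TPM in Ad-ATP12A libraries, 38.8 to 114 TPM in Ad-GFP libraries and 50.8 to 80.9 TPM in bleomycin libraries, against 29.8 to 68.7 TPM in control libraries, and Col4a5 from 30.4 to 50.04 TPM in Ad-ATP12A libraries, 25.0 to 70.5 TPM in Ad-GFP libraries and 29.0 to 59.7 TPM in bleomycin libraries, against 29.3 to 44.5 TPM in control libraries. Both overlapped the controls and were not called, with log2 fold changes for bleomycin of 0.34 (95% interval -0.27 to 0.95) and 0.25 (-0.23 to 0.74). Col4a6, which pairs with Col4a5 in other basement membranes, was the scarcest, at 3.30 to 7.07 TPM in Ad-ATP12A libraries, 3.49 to 9.38 TPM in Ad-GFP libraries and 3.64 to 7.69 TPM in bleomycin libraries, against 6.59 to 9.67 TPM in control libraries, and was not called (-0.51, interval -1.09 to 0.06). By mean level over all 16 libraries the type IV chains came in the order Col4a1 (420.12 TPM), Col4a2 (268 TPM), Col4a3 (62.0 TPM), Col4a5 (41.0 TPM), Col4a4 (34.6 TPM) and Col4a6 (6.09 TPM), and the ranges of neighbours in that order overlapped except between Col4a4 and Col4a6. Within single libraries Col4a1 exceeded Col4a2 and Col4a2 exceeded Col4a3 in all 16. In some libraries Col4a5 lay above Col4a3 or below Col4a4.

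**Figure D3:**
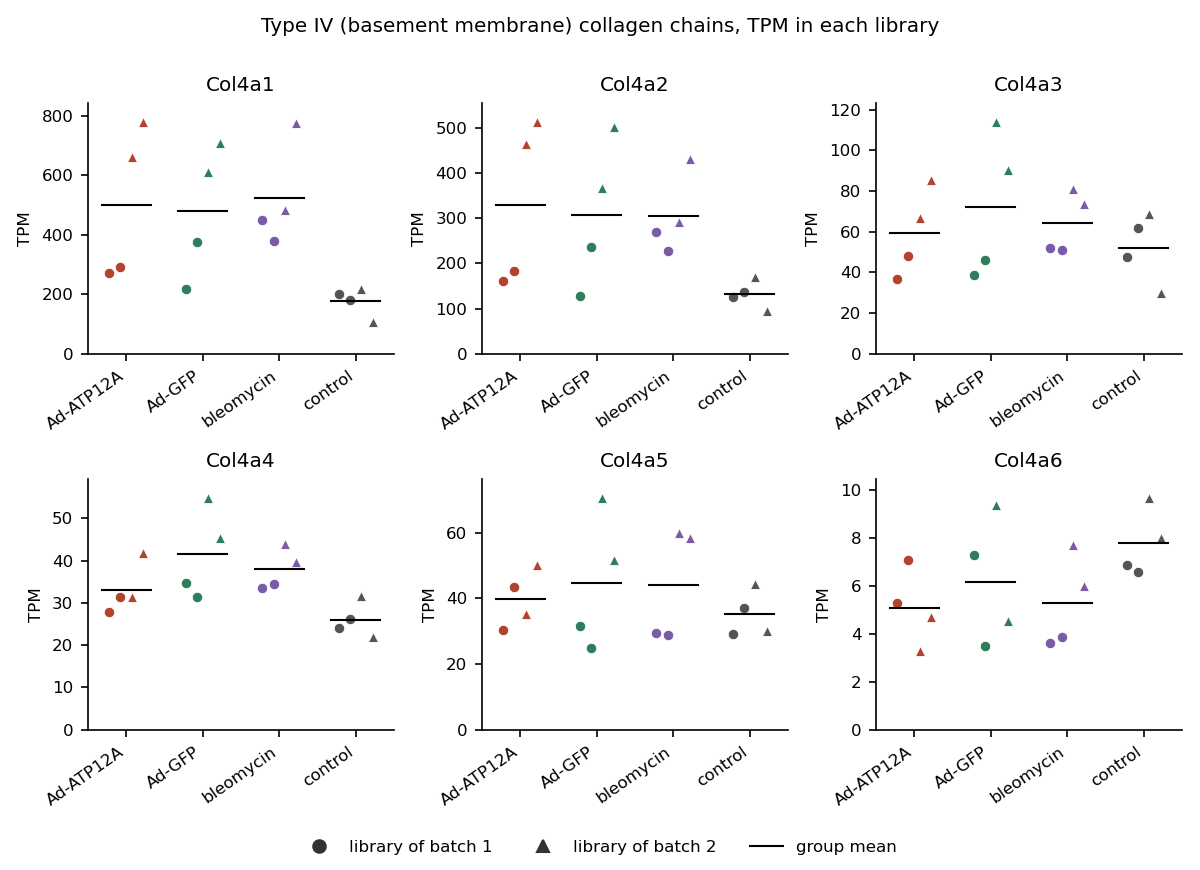
Points give TPM per library on a linear axis from 0 for Col4a1 to Col4a6, with groups from left to right Ad-ATP12A, Ad-GFP, bleomycin and control, circles for batch 1, triangles for batch 2 and a bar at the group mean. Col4a1 and Col4a2 separate bleomycin from control, Col4a1 at 523 ± 174 against 177 ± 49.3 TPM (SD, n = 4 each), while Col4a3, Col4a5 and Col4a6 overlap.

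Col4a1 and Col4a2 lie head to head. Their annotated starts are 21 bases apart on opposite strands of chromosome 8 in GRCm38, and their 300-base promoter windows share 78 bases. In RefSeq's gene order 8 pairs of collagen chain genes are direct neighbours, and 5 of them had both genes tested. Col3a1 and Col5a2 had log2 fold changes for bleomycin of 3.02 and 2.85, Col4a1 and Col4a2 of 1.56 and 1.20, and Col6a2 and Col6a1 of 0.99 and 0.92. Both genes were called in these 3 pairs. Col4a4 and Col4a3 had 0.53 and 0.34, with Col4a4 alone called, and Col4a6 and Col4a5 had -0.51 and 0.25, with neither called. Without strand information on the counting, reads where such genes overlap cannot be told apart.

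All 3 beaded-filament chains tested were higher in bleomycin lungs. Col6a1, Col6a2 and Col6a3 form type VI collagen, which links the cell surface to the fibrils. Col6a3 had 56.5, 75.8, 201 and 142 TPM in Ad-ATP12A libraries, 57.8, 143, 76.7 and 144 TPM in Ad-GFP libraries and 114, 89.2, 68.0 and 92.0 TPM in bleomycin libraries, against 16.8, 26.4, 32.1 and 26.5 TPM in control libraries. Col6a1 had 99.1, 147, 247 and 209 TPM in Ad-ATP12A libraries, 108, 167, 202 and 213 TPM in Ad-GFP libraries and 154, 131, 172 and 192 TPM in bleomycin libraries, against 75.9, 85.1, 103 and 75.0 TPM in control libraries. Col6a2 had 69.5, 121, 242 and 181 TPM in Ad-ATP12A libraries, 76.3, 131, 177 and 182 TPM in Ad-GFP libraries and 122, 96.0, 139.90 and 175 TPM in bleomycin libraries, against 61.0, 63.9, 78.6 and 58.2 TPM in control libraries. In each case the bleomycin libraries did not overlap the controls. Ad-ATP12A b1r1 was the lowest library given bleomycin, inside the control range for Col6a1 and Col6a2. For Col6a2 Ad-GFP b1r1 also lay inside the control range. The log2 fold changes for bleomycin were 1.81 (SE 0.35, adjusted p = 0.00432) for Col6a3, 0.99 (SE 0.24, adjusted p = 0.013) for Col6a2 and 0.92 (SE 0.19, adjusted p = 0.00512) for Col6a1. The call on Col6a2 was lost without bleomycin b1r1 (adjusted p = 0.0509). The other chains of the type, Col6a4, Col6a5 and Col6a6, stayed under the filter.

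Fibril-associated collagens sit on the surface of fibrils. Of 4 tested, Col16a1 (type XVI) was higher and none was lower in bleomycin lungs, with a median log2 fold change of 0.58. Col16a1 had 28.9, 12.9, 44.0 and 34.3 TPM in Ad-ATP12A libraries, 12.9, 23.6, 14.5 and 39.3 TPM in Ad-GFP libraries and 47.9, 43.1, 13.7 and 35.5 TPM in bleomycin libraries, against 10.5, 9.81, 13.0 and 10.7 TPM in control libraries. Bleomycin b2r1 lay just above the highest control and the other 3 bleomycin libraries well above it, and the log2 fold change was 1.46 (SE 0.43, adjusted p = 0.03). That call was lost without bleomycin b1r1, b1r2 or b2r2 or control b1r1, b1r2 or b2r2 (adjusted p = 0.0555 to 0.105). Col12a1 (type XII) had the highest mean level of the class over all 16 libraries, while Col16a1 was higher in bleomycin libraries and Col14a1 in controls. It had 15.8, 18.0, 55.5 and 36.2 TPM in Ad-ATP12A libraries, 14.1, 34.0, 18.8 and 41.5 TPM in Ad-GFP libraries and 40.1, 28.1, 15.9 and 32.9 TPM in bleomycin libraries, against 8.83, 15.0, 21.9 and 13.7 TPM in control libraries. Bleomycin b2r1 lay inside the control range, and the log2 fold change of 0.92 was not called (95% interval 0.06 to 1.79, adjusted p = 0.124). Col14a1 (type XIV) ran from 11.3 to 23.1 TPM in Ad-ATP12A libraries, 9.51 to 28.6 TPM in Ad-GFP libraries and 9.79 to 36.3 TPM in bleomycin libraries, against 14.0 to 19.2 TPM in control libraries, with a log2 fold change of 0.23 (-0.34 to 0.80). Col20a1 (type XX) ran from 0.40 to 2.20 TPM in Ad-ATP12A libraries, 0.53 to 1.93 TPM in Ad-GFP libraries and 0.86 to 1.40 TPM in bleomycin libraries, against 0.67 to 1.92 TPM in control libraries, with -0.13 (-0.70 to 0.43).

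Network-forming chains gave 1 call in 3. Col8a1 encodes a chain of type VIII collagen, a short-chain collagen of vessel walls. It had 9.25, 7.29, 22.9 and 24.9 TPM in Ad-ATP12A libraries, 4.45, 17.9, 10.01 and 26.1 TPM in Ad-GFP libraries and 28.5, 18.4, 12.1 and 27.8 TPM in bleomycin libraries, against 8.21, 8.26, 6.77 and 5.60 TPM in control libraries. All bleomycin libraries lay above the controls and Ad-GFP b1r1 lay below all of them. Its log2 fold change for bleomycin was 1.41 (SE 0.45, adjusted p = 0.0452), a call lost on leaving out any of 9 libraries (Ad-ATP12A b1r1 and b2r1, all controls and the bleomycin libraries except b2r1, adjusted p = 0.0504 to 0.144). Col8a2, its partner chain, had 8.55, 7.77, 7.68 and 5.56 TPM in Ad-ATP12A libraries, 8.32, 5.37, 7.43 and 6.64 TPM in Ad-GFP libraries and 7.25, 7.23, 7.17 and 7.23 TPM in bleomycin libraries, against 8.55, 8.23, 8.86 and 10.9 TPM in control libraries. The bleomycin libraries were close to each other and all below the controls, with a log2 fold change of -0.30 that was not called (adjusted p = 0.163). Col10a1, the type X chain of growth-plate cartilage, had 0.29, 0.30, 0.57 and 2.54 TPM in Ad-ATP12A libraries, 0.03, 1.52, 0.11 and 1.02 TPM in Ad-GFP libraries and 1.22, 0.73, 0.43 and 1.33 TPM in bleomycin libraries, against 0.04, 0, 0 and 0.02 TPM in control libraries. It was listed at 0 in 2 controls, and its difference of 0.90 on the log2(TPM + 1) scale was not called (adjusted p = 0.0784), while a pseudocount of 0.1 gave 3.07 (adjusted p = 0.02). Having entered the test only through libraries given bleomycin, Col10a1 had in part to differ.

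Transmembrane chains were the one class whose tested members all had a negative log2 fold change, with a median of -0.60 for bleomycin over 3 chains and -0.54 without Col17a1. Col17a1, the type XVII collagen of hemidesmosomes, was the single chain called lower. Having passed the filter through the group where it was high, it had in part to differ. It had 0.16, 0.65, 0.17 and 0.21 TPM in Ad-ATP12A libraries, 0.99, 0.12, 1.20 and 0.18 TPM in Ad-GFP libraries and 0.41, 0.24, 0.99 and 0.58 TPM in bleomycin libraries, against 1.82, 1.09, 1.91 and 1.43 TPM in control libraries. All bleomycin libraries lay below the controls, b2r1 only just, and the log2 fold change was -0.73 (SE 0.24, adjusted p = 0.0473). That call was lost on leaving out any of 10 libraries (all controls, the Ad-ATP12A libraries except b1r2 and the bleomycin libraries except b2r1, adjusted p = 0.0549 to 0.137) and with a pseudocount of 0.1 (log2 fold change -1.44, adjusted p = 0.113). Col13a1, which occurs at cell adhesions, had 16.3, 29.4, 12.9 and 23.0 TPM in Ad-ATP12A libraries, 20.2, 17.8, 40.6 and 16.1 TPM in Ad-GFP libraries and 19.1, 19.7, 37.7 and 27.8 TPM in bleomycin libraries, against 35.8, 35.2, 41.8 and 29.6 TPM in control libraries. Col23a1 (type XXIII) had 8.23, 13.7, 36.7 and 32.4 TPM in Ad-ATP12A libraries, 12.8, 15.5, 19.2 and 32.2 TPM in Ad-GFP libraries and 15.6, 13.2, 17.3 and 20.3 TPM in bleomycin libraries, against 17.8, 23.2, 33.8 and 29.7 TPM in control libraries. Neither was called for bleomycin, with log2 fold changes of -0.48 (95% interval -1.11 to 0.15) and -0.60 (-1.12 to -0.08), and 1 bleomycin library was inside the control range for each, b2r1 for Col13a1 and b2r2 for Col23a1.

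Of the remaining chains, Col15a1 and Col18a1 are multiplexins, collagens of basement membrane zones whose ends can be released as fragments such as endostatin. Col15a1 had 22.1, 19.8, 31.3 and 40.7 TPM in Ad-ATP12A libraries, 17.7, 48.5, 12.8 and 33.8 TPM in Ad-GFP libraries and 55.4, 48.4, 19.96 and 35.5 TPM in bleomycin libraries, against 5.99, 4.66, 6.24 and 5.02 TPM in control libraries. All libraries given bleomycin lay above all controls, and the log2 fold change was 2.57 (SE 0.38, adjusted p = 8.6e-04). Col18a1 had 18.9, 22.5, 62.1 and 70.1 TPM in Ad-ATP12A libraries, 14.2, 35.3, 37.4 and 54.5 TPM in Ad-GFP libraries and 47.5, 29.6, 30.5 and 53.9 TPM in bleomycin libraries, against 20.5, 19.1, 21.2 and 14.6 TPM in control libraries. Its bleomycin libraries also lay above the controls, but the log2 fold change of 1.02 was not called (95% interval 0.24 to 1.81, adjusted p = 0.0659). Col7a1, the type VII chain of the fibrils that anchor epithelium to the tissue beneath, had 9.47, 6.36, 21.4 and 14.0 TPM in Ad-ATP12A libraries, 5.08, 20.4, 5.18 and 21.8 TPM in Ad-GFP libraries and 19.3, 22.2, 6.38 and 10.1 TPM in bleomycin libraries, against 1.40, 2.66, 2.34 and 3.22 TPM in control libraries. It did not overlap the controls in any group given bleomycin, with a log2 fold change of 2.07 (SE 0.51, adjusted p = 0.0135) that was lost without bleomycin b1r1 or b1r2 (adjusted p = 0.0511 to 0.0532). Col28a1 (type XXVIII) had 2.82, 2.82, 12.8 and 9.45 TPM in Ad-ATP12A libraries, 2.20, 4.73, 3.46 and 10.9 TPM in Ad-GFP libraries and 5.02, 4.11, 2.03 and 10.4 TPM in bleomycin libraries, against 0.51, 0.63, 0.99 and 0.61 TPM in control libraries. All libraries given bleomycin exceeded the controls, with a log2 fold change of 1.77 (SE 0.43, adjusted p = 0.0129) that was lost without bleomycin b1r1 (adjusted p = 0.0501). Col28a1 entered the test only through libraries given bleomycin, so its separation follows in part from the filter.

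The 11 chains under the filter were too scarce to test. Over the 16 libraries Col26a1 ran from 0.20 to 1.40 TPM, Col9a3 from 0.24 to 1.17 TPM and Col22a1 from 0.01 to 1.09 TPM. Col6a4 ran from 0.04 to 0.85 TPM, Col6a5 from 0.08 to 0.75 TPM and Col6a6 from 0.04 to 0.20 TPM. The others stayed at or under 0.34 TPM, namely Col9a2, Col25a1, Col2a1, Col9a1 and Col19a1. These include all 3 chains of the cartilage collagen type IX and the type II chain Col2a1.

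The groups with virus were set against the same 4 controls, so these comparisons share libraries with the one above. In Ad-GFP lungs 17 of 33 chains were higher and none was lower than in control lungs, against 9.16% higher and 4.52% lower of all genes tested and 13.7% in either direction. The 17 include Col24a1 and Col28a1, which entered the test only through libraries given bleomycin. Leaving out the chains that entered through 1 side only, 15 of 27 were higher and none was lower. The chains with the largest differences were Col1a1 at 3.01 (SE 0.59, adjusted p = 0.00651), Col3a1 at 2.91 (SE 0.33, adjusted p = 2.8e-04), Col5a2 at 2.55 (SE 0.53, adjusted p = 0.00886) and Col5a1 at 2.47 (SE 0.56, adjusted p = 0.013) on the log2 scale. Col1a2, Col5a3, Col24a1, Col27a1, Col4a1, Col4a2, Col4a4, Col6a1, Col6a2, Col6a3, Col7a1, Col15a1 and Col28a1 made up the rest, from 0.64 for Col4a4 to 2.29 for Col1a2. The calls on Col5a1, Col24a1, Col4a1 and Col28a1 were lost without Ad-GFP b1r2 or b2r2 and that on Col6a2 without Ad-GFP b1r2. That on Col7a1 was lost without Ad-GFP b1r2 or b2r2 or control b1r1, b1r2 or b2r1, and that on Col4a2 without Ad-GFP b1r2, b2r1 or b2r2 or control b2r1 or b2r2. That on Col5a3 was lost on leaving out any of 11 libraries (all controls, Ad-ATP12A b1r1 and b2r2, Ad-GFP b1r2 and b2r2 and the bleomycin libraries except b2r1, adjusted p = 0.0533 to 0.16). In all, 15 of 33 chains had every Ad-GFP library above every control and none had every library below, against 10.8% and 4.49% of all genes tested. These 15 include Col11a1, Col24a1 and Col28a1, which entered only through libraries given bleomycin. The count of 17 calls was 9 without Ad-GFP b1r2, 10 without Ad-GFP b2r2, 11 with the 8 Ad-GFP and control libraries fitted alone and 1 in batch 2 alone. Batch 1 alone, with as many libraries, lost Col5a3, Col4a1, Col4a2, Col4a4, Col6a1 and Col6a2 and added Col13a1. With no filter Col5a3, Col7a1 and Col4a2 were not called, with no batch term Col5a3, Col4a1, Col4a2 and Col6a2 were not, and with quantile normalization or a robust prior Col5a3 was not. Array weights lost Col4a2 and added Col13a1 and Col17a1 as lower (adjusted p = 0.0461 and 0.0415). Quantile normalization and an Xist term also added Col17a1 as lower (adjusted p = 0.0342 and 0.0359).

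In Ad-ATP12A lungs 17 of 33 chains were higher and 1 was lower than in control lungs, against 13.3% and 9.49% of all genes tested and 22.8% in either direction. The 17 again include Col24a1 and Col28a1. Leaving out the chains that entered through 1 side only, 15 of 27 were higher and none was lower. Col1a1 differed by 3.37 (SE 0.59, adjusted p = 0.00217), Col3a1 by 3.04 (SE 0.33, adjusted p = 1.2e-04), Col5a2 by 2.90 (SE 0.53, adjusted p = 0.00277) and Col5a1 by 2.77 (SE 0.56, adjusted p = 0.00458) on the log2 scale. Col1a2, Col5a3, Col24a1, Col27a1, Col4a1, Col4a2, Col16a1, Col6a1, Col6a2, Col6a3, Col7a1, Col15a1 and Col28a1 were also higher, from 0.51 for Col27a1 to 2.57 for Col1a2. Col17a1 was lower, at -0.99 (SE 0.24, adjusted p = 0.0111), a call kept with any 1 library left out, though it entered the test through the controls and every Ad-ATP12A library lay under 1 TPM. The calls on Col5a3, Col24a1 and Col4a2 were lost without Ad-ATP12A b2r1 or b2r2 (adjusted p = 0.0551 to 0.0622), and that on Col7a1 without b2r1. That on Col16a1 was lost on leaving out any of 10 libraries (all controls, the Ad-ATP12A libraries except b1r2, Ad-GFP b1r2 and bleomycin b1r2 and b2r2). That on Col27a1 was lost without Ad-ATP12A b1r1, b2r1 or b2r2 or control b1r1 or b1r2 (adjusted p = 0.065 to 0.101). Every Ad-ATP12A library lay above every control for 15 of 33 chains and below for 2 (Col13a1 and Col17a1), against 14% and 10.8% of all genes tested. The 15 include Col10a1, Col11a1, Col24a1 and Col28a1, which entered only through libraries given bleomycin. Batch 1 alone called 6 chains (Col1a1, Col3a1, Col27a1, Col6a3, Col15a1 and Col28a1). Batch 2 alone, with as many libraries, lost the calls on Col17a1, Col24a1, Col16a1 and Col27a1 and added Col18a1. Col16a1 and Col27a1 were also not called with no filter, quantile normalization or median-ratio scaling (adjusted p = 0.0517 to 0.106), and Col4a2 and Col16a1 with no batch term. Col13a1 was called lower with either scaling (0.0381 and 0.0428). Without the 3 libraries low in Scgb1a1, 15 chains were called in Ad-GFP and 17 in Ad-ATP12A lungs.

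**Figure D4:**
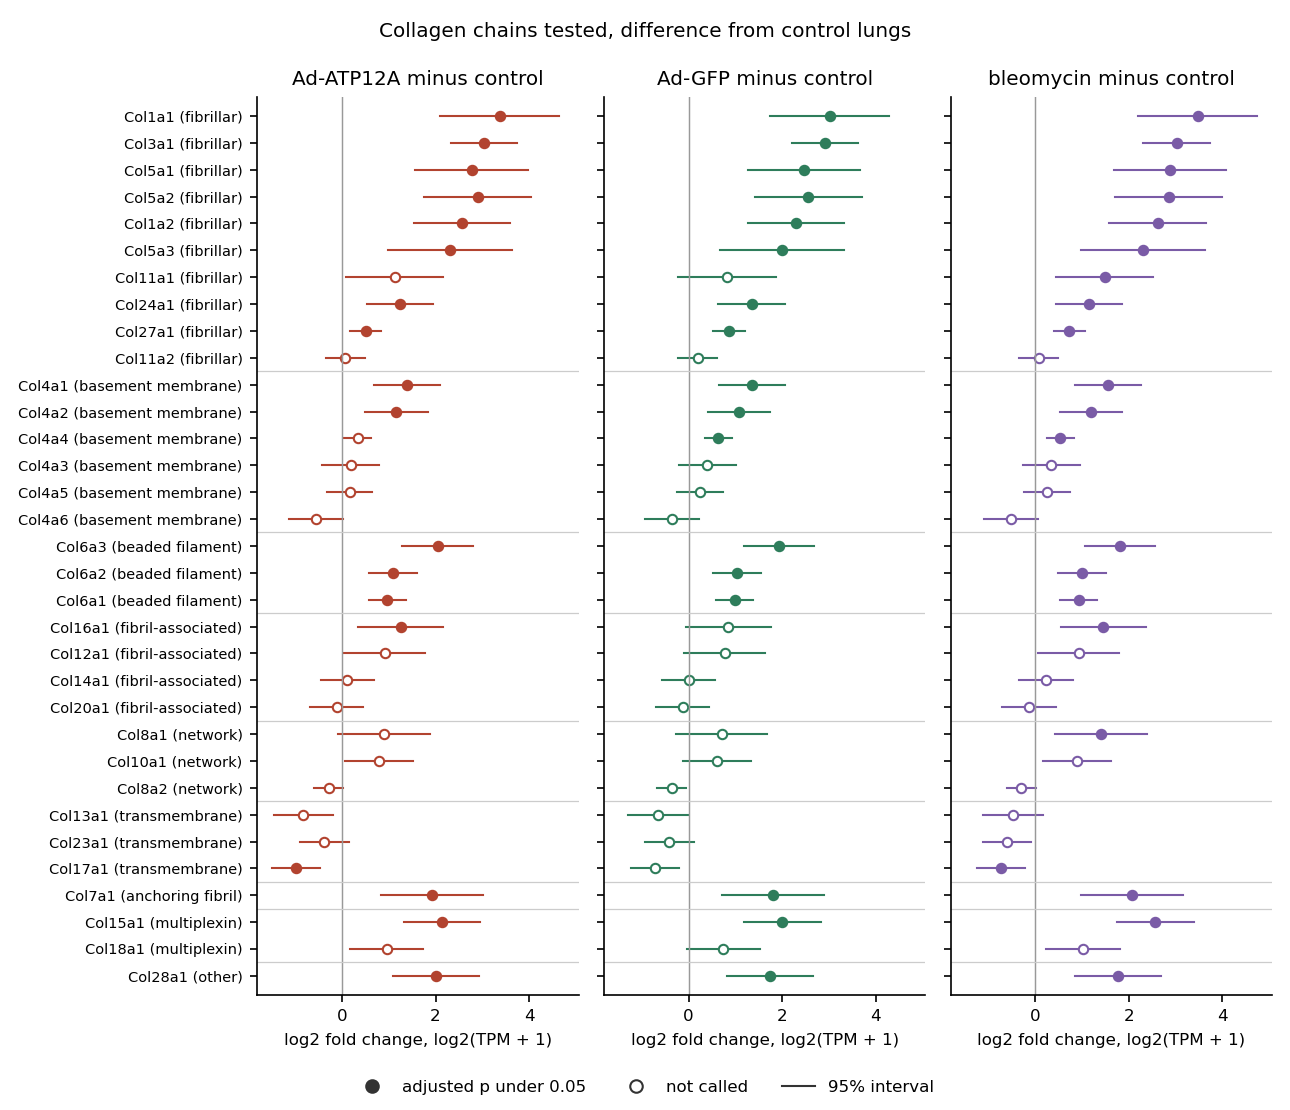
Points give log2 fold changes on the log2(TPM + 1) scale with 95% intervals from limma for the 33 chains tested, by class, in 3 panels for Ad-ATP12A, Ad-GFP and bleomycin, each minus the same 4 controls. Filled points have an adjusted p under 0.05, and Col1a1 lies at 3.37, 3.01 and 3.48 in the 3 panels.

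A pair of comparisons was made between groups given bleomycin, and Ad-ATP12A was not compared with bleomycin alone. Between Ad-GFP and bleomycin lungs limma called 0 of 33 chains, against 0.0118% of all genes tested, and 0 chains had an unadjusted p under 0.05, as 287 of all 17003 genes did. The log2 fold changes ran from -0.70 for Col8a1 (95% interval -1.68 to 0.27) to 0.20 for Col24a1 (-0.52 to 0.91). No chain had all libraries of either group beyond the other, against 0.276% higher and 0.529% lower of all genes tested.

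Between Ad-ATP12A and Ad-GFP lungs, which by their labels differ in the gene the virus is named for, limma also called 0 of 33 chains, against 0.00588% of all genes tested. At an unadjusted p under 0.05 there were 413 genes in all, among them Col27a1 at -0.36 and Col4a4 at -0.30, both with an adjusted p of 0.999. Col1a1 was 571 ± 467 TPM in Ad-ATP12A and 424 ± 299 TPM in Ad-GFP lungs (SD, n = 4 each), a log2 fold change of 0.36 with a 95% interval of -0.91 to 1.63. Col3a1 had 0.13 (-0.58 to 0.84), Col4a1 0.05 (-0.65 to 0.75) and Col6a1 -0.01 (-0.41 to 0.39). These intervals leave room for a Col1a1 difference of over 1 log2 unit in the upward direction, and so do not show the groups to be alike. No chain had separate groups, against 0.312% higher and 0.459% lower of all genes tested.

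In both of these comparisons the median fibrillar difference had opposite signs in the batches. Between Ad-GFP and bleomycin lungs it was -0.81 in batch 1 with 3 of 10 chains positive, and 0.16 in batch 2 with 9 of 10 positive. Over all 33 chains, 7 were positive in batch 1 and 23 in batch 2 in this comparison, and the counts were equal between Ad-ATP12A and Ad-GFP lungs. The comparisons share the Ad-GFP libraries. Between Ad-ATP12A and Ad-GFP lungs the median over the 10 fibrillar chains was 0.29 pooled, -0.43 in batch 1 with 0 of 10 positive, and 0.91 in batch 2 with 8 of 10 positive. Col1a1 differed by -0.47 in batch 1 and 1.19 in batch 2, Col5a1 by -0.45 in batch 1 and 1.05 in batch 2 and Col3a1 by -0.23 in batch 1 and 0.49 in batch 2, with 2 libraries a group in each batch. Fits of batch 1 alone and of batch 2 alone each called 0 of 33 chains. Col27a1 and Col11a2 were the fibrillar chains lower in both. The interaction in a fit of 8 group-by-batch means called 0 of 33 chains and 0 of all 17003 genes at an adjusted p under 0.05, with 1070 genes at an unadjusted p under 0.05. Atp12a itself was higher in batch 2 than in batch 1 in Ad-ATP12A libraries, as was Col1a1, at 1190.95 and 669.55 TPM in batch 2 and 241 and 181 TPM in batch 1. Xist in these Ad-ATP12A libraries was 156.98 and 130.43 TPM in batch 1 and 0.07 and 74.42 TPM in batch 2. With 4 libraries, the parts of batch, Atp12a level and Xist level cannot be told apart.

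Batch differences over all groups were about as common among the chains as among all genes. In batch 2 against batch 1, 7 of 33 chains (21.2%) were higher and none was lower, against 16.4% and 2.11% of all genes tested and 18.5% in either direction. Of 7 endothelial markers 5 were higher in batch 2 as well, with a median of 0.65, and 1 of 6 alveolar fibroblast markers was, and their part was not tested. The 7 chains called were Col23a1 (0.84), Col4a2 (0.82), Col14a1 (0.69), Col6a2 (0.67), Col4a5 (0.61), Col6a1 (0.50) and Col4a4 (0.30) on the log2 scale, with adjusted p from 0.0104 to 0.0432. By class these were 3 of 6 type IV, 2 of 3 beaded-filament, 1 of 4 fibril-associated and 1 of 3 transmembrane chains tested. None of the 10 fibrillar chains tested was called, and the median of all genes was itself 0.09. Without the 3 libraries low in Scgb1a1 no chain was called, with quantile normalization 4 were, and with median-ratio scaling 5. Array weights and a filter at a mean of 5 TPM each added Col4a1 and Col4a3, and a robust prior added Col4a1. Leaving out Ad-ATP12A b1r1, bleomycin b1r2 or bleomycin b2r2 gave 4, 4 and 3 calls. The call on Col4a4 was lost on leaving out any of 12 libraries. That on Col14a1 was lost without any of 5, on Col4a2 without any of 4 and on Col4a5 without any of 2. The calls on Col23a1, Col6a1 and Col6a2 were kept with any 1 library left out. The bleomycin effect was compared between batches by an interaction, which called 0 of 33 chains against 0.0647% of all genes tested (3230 genes at an unadjusted p under 0.05). Col27a1 came nearest, with a bleomycin difference of 1.17 in batch 1 and 0.29 in batch 2 (adjusted p = 0.0697). It passed with quantile normalization (adjusted p = 0.0416), with median-ratio scaling (0.0469) and with array weights (0.0452), and without control b2r1 Col4a3 passed instead (0.0397).

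Ratios between chains within a library show which chains changed unequally. The chains of type I collagen assemble as a pair of Col1a1 chains with a single Col1a2 chain. The ratio of Col1a1 to Col1a2 TPM was 0.867 ± 0.103 in Ad-ATP12A, 0.824 ± 0.134 in Ad-GFP and 0.906 ± 0.107 in bleomycin libraries, against 0.494 ± 0.0748 in control libraries (SD, n = 4 each). No library given bleomycin overlapped the controls. The log2 differences were 0.82, 0.74 and 0.88, each with an exact two-sided permutation p within batch of 0.0556, the smallest that 36 relabellings allow, and 0.159 after adjustment over 40 ratio tests. Such a design cannot reach 0.05. Without strata, over 70 relabellings, the exact permutation p was 0.0286, also the smallest possible, and 0.0879 after adjustment.

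The ratio of Col4a3 to Col4a1 was 0.128 ± 0.0293 in Ad-ATP12A, 0.153 ± 0.0327 in Ad-GFP and 0.128 ± 0.0307 in bleomycin libraries, against 0.294 ± 0.0454 in control libraries (SD, n = 4 each). The groups given bleomycin did not overlap the controls, with the same smallest exact permutation p of 0.0556. Col4a1 and Col6a1 relative to Col1a1 likewise lay below the controls without overlap, with log2 differences for bleomycin of -1.94 and -2.58. Col4a1 to Col4a2 was 1.70 ± 0.0639 in bleomycin libraries against 1.33 ± 0.194 in controls (SD, n = 4 each) without overlap, while Ad-ATP12A and Ad-GFP libraries overlapped the controls. Col3a1 to Col1a1, Col5a1 to Col5a2 and Col4a3 to Col4a4 overlapped the controls in all 3 groups, with log2 differences for bleomycin of -0.47, 0.03 and -0.20. No ratio separated Ad-ATP12A from Ad-GFP libraries, or Ad-GFP from bleomycin libraries.

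**Figure D5:**
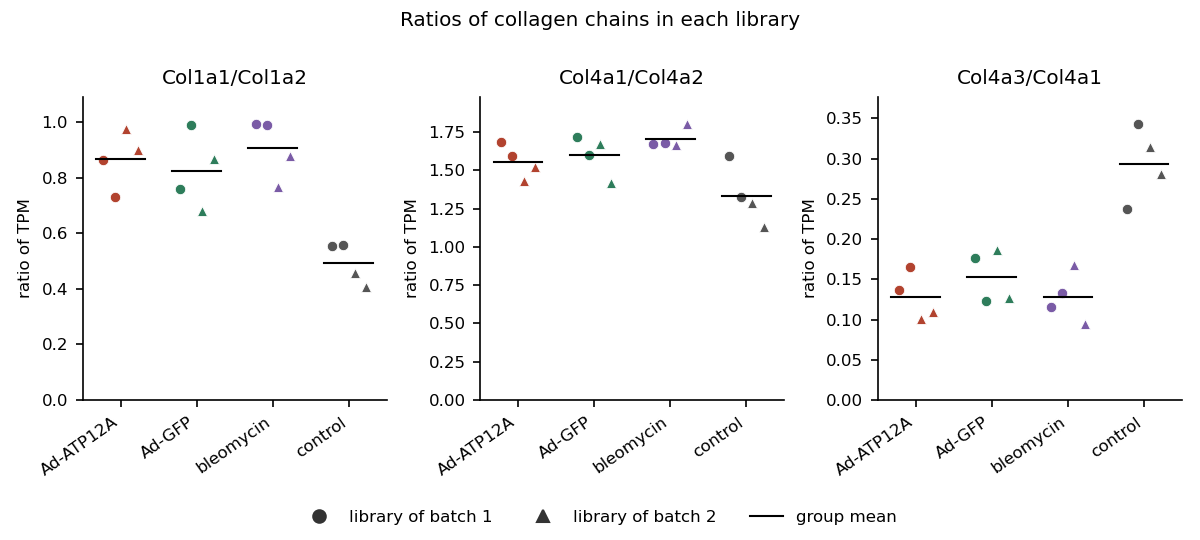
Points give per-library ratios of TPM for Col1a1 to Col1a2, Col4a1 to Col4a2 and Col4a3 to Col4a1, with groups from left to right Ad-ATP12A, Ad-GFP, bleomycin and control. The Col1a1 to Col1a2 ratio lies at 0.906 ± 0.107 in bleomycin and 0.494 ± 0.0748 in control libraries (SD, n = 4 each), and the Col4a3 to Col4a1 ratio lies at 0.128 ± 0.0307 and 0.294 ± 0.0454 in the same groups.

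Collagen chains need a dedicated set of enzymes and chaperones before and after they leave the cell. Of 17 genes for hydroxylation, glycosylation and folding, 11 were higher and 1 was lower in bleomycin lungs than in controls, against 13.2% and 5.61% of all genes tested, with a median log2 fold change of 0.52. The collagen chaperone Serpinh1 had 1.33 (SE 0.17, adjusted p = 2.8e-04), the galactosyltransferase Colgalt1 1.01 (SE 0.17, adjusted p = 0.00223) and the prolyl hydroxylase subunit P4ha3 2.98 (SE 0.53, adjusted p = 0.00271). Colgalt2, a second galactosyltransferase, was lower at -1.26 (SE 0.29, adjusted p = 0.01). P4ha1 and P4ha2, the more widely used prolyl hydroxylase subunits, and P3h2, P3h4 and the lysyl hydroxylase Plod2 were not called, at -0.17, 0.27, -0.52, 0.07 and 0.12. The same list gave 10 higher and 1 lower in Ad-ATP12A and 8 higher and 1 lower in Ad-GFP lungs against the shared controls, where 13.3% and 9.16% of all genes tested were higher.

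Among 5 crosslinking enzymes, which join finished fibrils, 3 were higher in bleomycin lungs, Loxl2 by 2.10 (SE 0.48, adjusted p = 0.00919), Lox by 2.51 (SE 0.65, adjusted p = 0.0181) and Loxl1 by 1.15 (SE 0.30, adjusted p = 0.0189) on the log2 scale. Loxl3 (1.02) and Loxl4 (0.91) were not called. In 3 further lists 1 gene was called in each direction, to be read against 13.2% higher and 5.61% lower of all genes. Export and propeptide cleavage gave 1 higher and 1 lower of 9 tested, namely Adamts2, which removes the N-propeptide, at 1.74, and Pcolce2, an enhancer of C-propeptide removal, at -1.79. Small proteoglycans that bind fibrils gave 1 higher (Lum, 1.46) and 1 lower (Ogn, -1.87) of 7, and collagen receptors 1 higher (Mrc2, which takes up collagen, 0.73) and 1 lower (Itga1, -0.81) of 10. Of 13 basement membrane partners, 6 were higher, among them the laminin chain Lamc1 at 0.86 (SE 0.12, adjusted p = 4.5e-04) and Hspg2, which encodes perlecan, at 1.17 (SE 0.17, adjusted p = 8.9e-04). The laminin chain Lamb2 was lower, at -0.43. Between Ad-ATP12A and Ad-GFP lungs no gene of these lists was called.

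Some markers of cell types that make collagen were called between the same groups, where 13.2% of all genes tested were higher and 5.61% were lower in bleomycin lungs. Summed over 6 alveolar fibroblast markers, the level was 646 to 1511 TPM in Ad-ATP12A libraries, 731 to 2123 TPM in Ad-GFP libraries and 912 to 1782 TPM in bleomycin libraries, against 2594 to 4989 TPM in control libraries, and in bleomycin lungs 3 of 6 were lower and none was higher. Summed over 8 markers of activated fibroblasts and myofibroblasts, it was 485 to 1316 TPM in Ad-ATP12A libraries, 508 to 942 TPM in Ad-GFP libraries and 575 to 1387 TPM in bleomycin libraries, against 406 to 578 TPM in control libraries. The ranges of this sum overlapped the controls in all 3 groups. Of these 8, Tnc, Fap and Cthrc1 were higher in bleomycin lungs and none was lower, and 1 of them had a control mean under 0.1 TPM. Summed over 7 endothelial markers, it was 518 to 1066 TPM in Ad-ATP12A libraries, 691 to 1615 TPM in Ad-GFP libraries and 717 to 1405 TPM in bleomycin libraries, against 1371 to 1931 TPM in control libraries, with 3 of 7 lower and none higher in bleomycin lungs. The Ad-GFP and bleomycin ranges of the endothelial sum overlapped the controls. In Ad-ATP12A lungs 4 of 6 alveolar fibroblast and 6 of 7 endothelial markers were lower and none was higher, against 9.49% lower of all genes tested, and in Ad-GFP lungs 3 of 6 and 3 of 7 were lower, against 4.52%. Of the 8 activated fibroblast and myofibroblast markers, 2 were higher in Ad-ATP12A and 2 in Ad-GFP lungs, and none was lower. The shares of all genes tested called higher were 13.3% and 9.16%. No alveolar fibroblast or endothelial marker had a group mean under 0.1 TPM. These lists stand beside the fibrillar, type IV and type XV chains above, and their part in those differences was not tested.

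Alveolar type 1 cell markers, 8 in number, summed to 2587 to 3941 TPM in Ad-ATP12A libraries, 2936 to 4458 TPM in Ad-GFP libraries and 3167 to 3936 TPM in bleomycin libraries, against 3541 to 5441 TPM in control libraries, with Hopx lower in bleomycin lungs and none higher. In Ad-ATP12A lungs 4 of the 8 were lower, and in Ad-GFP lungs 1 was. The part of these cells in the levels of Col4a3 and Col4a4 was not tested. The 5 airway basal cell markers were all under the filter, at a summed 1.30 to 2.77 TPM in Ad-ATP12A libraries, 0.83 to 2.81 TPM in Ad-GFP libraries and 0.69 to 3.81 TPM in bleomycin libraries, against 0.33 to 1.76 TPM in control libraries, and Krt5 was listed at 0 in 3 libraries. Of 10 cartilage markers Cytl1 alone was tested, and it was lower at -2.21, with sums of 4.30 to 8.67 TPM in Ad-ATP12A libraries, 3.28 to 8.30 TPM in Ad-GFP libraries and 3.49 to 9.71 TPM in bleomycin libraries, against 14.7 to 23.1 TPM in control libraries. Of the 10 cartilage markers, 7 had a mean under 0.1 TPM in controls. In Ad-ATP12A, Ad-GFP and bleomycin libraries 3, 5 and 3 did, so the sum does not describe each marker. The defining cartilage gene Acan was at most 0.42 TPM in any library and listed at 0 in 3 of 4 controls, and Epyc was at 0 in 15 of 16. The part of such cells in the levels of Col11a1 and Col10a1 was not tested. In bleomycin lungs mesothelial markers gave 3 of 5 lower and none higher, cardiac markers 1 of 6 lower and none higher, and tendon and skeletal muscle markers 1 higher and 1 lower of 5 tested. In Ad-ATP12A lungs 3 mesothelial markers were lower and 1 was higher, 4 cardiac markers were lower and none was higher, and 1 tendon and skeletal muscle marker was lower. In Ad-GFP lungs 2 mesothelial markers were lower and no cardiac, tendon or skeletal muscle marker was called. The part of these cells was not tested.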

How the data were processed

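Lung RNA of 16 mouse libraries was read from 1 deposited table of 53647 Ensembl identifiers. The authors deposited log2 of TPM plus 1, as read from the name of the table and from its values. Per the submitters' processing notes, STAR and RSEM were used with GRCm39 (mm39). Versions, annotation release and strand setting are not given in the sources used here, and multi-mapped reads could be shared between related chains. Titles of the samples gave group, batch and replicate, per the labels, and 0 columns belonged to no sample.

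Values were turned back to TPM. Symbols came from GENCODE M21 on GRCm38, which matched 52093 identifiers and left 1554 unmatched. The 17003 genes that reached 1 TPM in at least 4 libraries entered limma 3.58.1 (R 4.3.3). The fit used log2(TPM + 1), a trended prior variance, 4 group means and batch, two-sided, with Benjamini-Hochberg adjustment over all 17003 and a threshold of 0.05. It was tested on simulated data. Ratios were tested by exact permutation (scipy 1.17.1, Python 3.11.15), and figures were drawn with matplotlib 3.10.9.

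The members, lists and tests were chosen with earlier results of these data known. Every chain may be named. Library values follow a rule of up to 3 chains a class with the smallest p in bleomycin minus control plus the one of highest mean TPM, and values of further chains were added after they were seen. From each list of other genes up to 3 with the smallest p were named, plus those needed to say which were not called. The values of 1 gene of these lists are not reported here.

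Alternatives changed the pseudocount to 0.1, dropped the filter or asked for a mean of 5 TPM, applied quantile normalization or median-ratio scaling, and used array weights or a robust prior. Others fitted 8 libraries or a single batch, dropped the batch term, added a replicate block or an Xist term, and left out the 3 Scgb1a1-low libraries or each library in turn. Depth is unknown, so no counting intervals are given.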

Additional observations from a re-analysis of the deposited data

Results flagged for a closer look

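Of 132 sets of 4 libraries, each 1 chain in 1 group, 2 held a library far from the other 3, and chance alone gives about 1 in 20. Col3a1 was 55.26 TPM in control b2r2, against 99.36 to 109.63 TPM in the other controls. Col17a1 was 0.65 TPM in Ad-ATP12A b1r2, against 0.16 to 0.21 TPM in the other Ad-ATP12A libraries.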

How the results depend on the processing

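No called difference reversed direction under any alternative run. For bleomycin minus control, 21 chains were called. The count was 11 without the libraries low in Scgb1a1 and 1 in batch 2 alone, and it ranged from 11 to 24 with 1 library left out. For Ad-GFP minus control, 17 were called, with 1 in batch 2 alone, 11 with the 8 libraries of the 2 groups alone, and 9 to 18 with 1 library left out. For Ad-ATP12A minus control, 18 were called, with 6 in batch 1 alone and 12 to 19 with 1 library left out. Ad-GFP minus bleomycin and Ad-ATP12A minus Ad-GFP gave 0 calls under all alternatives. For batch 2 minus batch 1, 7 chains were called, with 3 without a filter, 4 with quantile normalization, 0 without the libraries low in Scgb1a1 and 3 to 10 with 1 library left out. The batch difference of the bleomycin effect gave 0 calls, and 1 with quantile normalization, with median-ratio scaling or with array weights (Col27a1) and 0 to 1 with 1 library left out. Batch 1 alone kept most of the bleomycin and Ad-GFP calls, and batch 2 alone kept most of the Ad-ATP12A calls. A fit with a batch or library left out has fewer libraries, equally many for either batch alone. The causes were not tested.

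The replicate numbers gave no clear sign of pairing libraries, though such correlations cannot exclude it. Of 12 same-numbered pairs within a batch, 1 had a correlation of deviations over 0.1, with a range of -0.158 to 0.212. With a replicate block the counts were 19 for bleomycin, 15 for Ad-GFP and 16 for Ad-ATP12A against control and 0 for the other 2 group comparisons, and the calls lost were Col8a1 and Col11a1 for bleomycin, Col5a3 and Col4a2 for Ad-GFP, and Col16a1 and Col27a1 for Ad-ATP12A. With a term for Xist they were 23, 18 and 24 in the first 3. TPM keep no counts, so the precision of chains near 1 TPM cannot be judged from depth.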
